A study of Arabidopsis thaliana with 6 samples.

Results

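Salicylic acid is the defence hormone of Arabidopsis against biotrophic pathogens, and its pathway was followed here through 10 genes in leaf pieces of the variegated flv/dot4 line and of wild type. The genes are given by locus for their textbook place in the pathway; the rule sets no threshold on a measured value, but results of these data were known when they were chosen. They are 10 of the 33602 gene models in the count tables, and all 10 passed the filter on low counts that left 21852 genes for testing. ICS1 and EDS5 make and export the precursor of salicylate, and SARD1 activates ICS1. EDS1 and PAD4 act upstream, NPR1 perceives the hormone, WRKY70 is a transcription factor of the response, and PR1, PR2 and PR5 are secreted pathogenesis-related (PR) proteins.

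The 6 libraries form 3 groups of 2. FLV border is the white margin of young rosette leaves of T-DNA stock salk_139995, labelled as FLV mutants, which the series describes as flv/dot4 knockouts. WT border is the green margin of leaves of Col-0 wild type, and WT centre is the leaf centre of Col-0. All plants were untreated, grown on soil with temperatures of 18 and 21 °C and light of up to 90 µE, and sampled at Boyes stage 1.13. The line is a single insertion stock with no complemented line or other allele among the samples used here. It has a border group and no leaf centre, so genotype is compared in the border alone and leaf region in wild type alone. The comparison of FLV border with WT centre changes both and is given to order the levels. Nothing in the labels says that the libraries of a group came from separate plants, so p-values measure the spread between these libraries, which may be technical.

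In leaves, most salicylate is made in plastids: ICS1 turns chorismate into isochorismate, EDS5 carries it out through the plastid envelope, and PBS3 couples it to glutamate in the cytosol, where the conjugate breaks down to salicylate. A smaller route starts with phenylalanine ammonia-lyase (PAL). NPR1 binds salicylate, enters the nucleus and activates PR genes with TGA transcription factors, while NPR3 and NPR4 bind it as repressors. PR1 is the usual marker of this response, and leaf age and patches of dying tissue are known to raise it.

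The promoters of PR2 and PR5 are shown because these genes encode secreted PR proteins, the output of the pathway, and differ in the motifs they hold. Each is the 250 bases before the annotated start, from RefSeq on build TAIR10.1, written 5′ to 3′ on the strand of the gene. Capitals mark TTGAC, the core of the W-box that WRKY factors bind, and TGACG, the core bound by TGA factors, each searched on both strands. A match on the opposite strand reads GTCAA or CGTCA, and TTGACG holds both motifs.
PR2, chr3:21189968-21190217, minus strand: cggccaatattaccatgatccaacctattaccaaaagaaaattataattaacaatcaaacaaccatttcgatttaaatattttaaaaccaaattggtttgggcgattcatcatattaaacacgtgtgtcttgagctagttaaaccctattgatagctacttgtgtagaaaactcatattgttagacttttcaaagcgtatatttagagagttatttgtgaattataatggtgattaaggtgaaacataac
PR5, chr1:28177420-28177669, plus strand: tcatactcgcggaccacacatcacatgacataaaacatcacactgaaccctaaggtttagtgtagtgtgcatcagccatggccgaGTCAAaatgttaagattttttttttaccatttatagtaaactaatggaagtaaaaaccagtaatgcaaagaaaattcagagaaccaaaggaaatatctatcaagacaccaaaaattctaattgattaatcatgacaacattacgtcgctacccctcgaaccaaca

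The PR5 window held 1 TTGAC on the opposite strand at -165 from the start, and the PR2 window held neither motif. Over the 9 genes searched, all but PR1, 5 windows held TTGAC, against 44.9% of 27443 promoters of the same length, and 2 windows (SARD1 and WRKY70) held TGACG, against 18.6%. These are matches of short letters in a short window, not measured binding sites.

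Total counts lay between 20448315 and 33214552, the extremes being libraries 1 and 2 of WT centre. Values below are counts per 1e6 (CPM) of the library size after scaling by the trimmed mean of M-values (TMM). The scaling factors of TMM were between 1.71 and 1.73 for FLV border, between 1.14 and 1.22 for WT border, and between 0.439 and 0.551 for WT centre, so levels between groups rest on the scaling. With library totals in its place, the median log2 fold change of all genes moved to 0.56 for FLV border over WT border, 1.24 for WT border over WT centre and 1.85 for FLV border over WT centre, against 0.02, -0.02 and 0.05 with TMM. Library 1 of WT centre stood apart, with 70.9% of its reads mapped, against 83.3% to 88.9% in the other libraries, and 17.1% of its counts on small nuclear and nucleolar RNAs, against 2.16% to 9.92%. DOT4 (AT4G18750), the gene disrupted in the line, drew 502 and 616 reads from the libraries labelled FLV border, but 18 and 52 reads from WT border and 5 and 6 reads from WT centre. The DOT4 counts go against the label, and a count per gene does not show which portion of the gene the reads cover. Directions that involve FLV border are therefore directions of libraries so labelled.

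Among the 10 genes, PR1 had the largest fold change along the wild-type leaf. It fell in WT border relative to WT centre, with means of 0.238 ± 0.19 and 3.94 ± 1.97 CPM (SD, n = 2 each) and a log2 fold change of -3.99 ± 0.85 (standard error of the edgeR quasi-likelihood model, adjusted p = 0.0385). PR2, EDS5 and PAD4 had log2 fold changes of -2.63, -2.44 and -2.25, with adjusted p-values of 0.0527 to 0.0961 by edgeR, and so did not pass. NPR1, the receptor, had 0.49 ± 0.42. Between the libraries labelled FLV border and WT border, 0 of the 10 genes passed by edgeR, 2 had an unadjusted p under 0.05, against 5.53% of all genes, and the largest differences were those of PR1, at -2.17 ± 0.94 (edgeR, adjusted p = 0.888), and ICS1, at -1.44 ± 0.60 (0.878). In a piece of tissue, fewer cells of a type and less RNA per cell cannot be told apart.

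**Figure D1:**
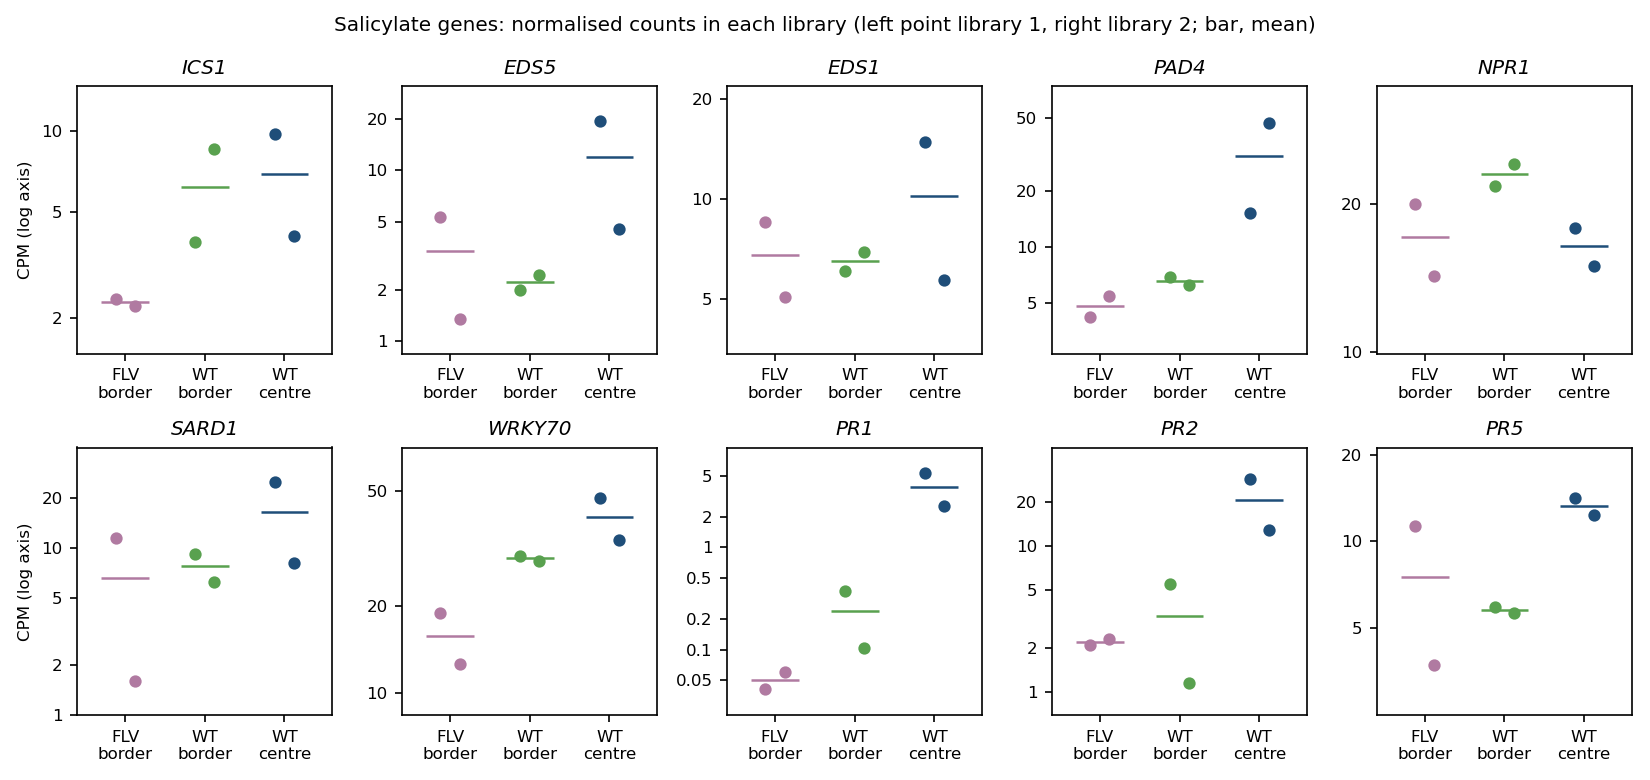
Normalised counts (CPM, log axis) of the 10 salicylate genes in each library of the 3 groups; points are libraries and bars are means of 2. PR1 lies at 0.0408 and 0.0607 CPM in FLV border, 0.373 and 0.104 CPM in WT border, and 5.33 and 2.54 CPM in WT centre.

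ICS1 (AT1G74710), the isochorismate synthase of the plastid, had 2.35 and 2.22 CPM in the libraries labelled FLV border, 3.84 and 8.55 CPM in WT border, and 9.77 and 4.05 CPM in WT centre. Both FLV border libraries lay below the other 4, while WT border and WT centre overlapped. FLV border over WT border had an unadjusted p of 0.0415 and did not pass adjustment over all genes (edgeR, adjusted p = 0.878). The log2 fold change, -1.44 ± 0.60, was negative in all 18 alternative settings run, from -1.90 to -0.77. WT border over WT centre was -0.16 ± 0.60, and with library totals the value was 1.02. ICS1 lies on chromosome 1 at 28070295 to 28074177 on the plus strand (TAIR10.1), with 12 or 13 exons by transcript.

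EDS5 (AT4G39030), a transporter of the plastid envelope, had 5.35 and 1.35 CPM in FLV border, 1.98 and 2.43 CPM in WT border, and 19.5 and 4.53 CPM in WT centre. The gene lies on chromosome 4 at 18185437 to 18189224, plus strand, with 12 exons. Both WT border libraries lay below both WT centre libraries, and the FLV border libraries spanned those of WT border. WT border over WT centre had a log2 fold change of -2.44 ± 0.83 (edgeR, adjusted p = 0.0961). Without library 1 of WT centre it was -0.98. A gene on the opposite strand, AT4G39040, overlaps EDS5 and had 2519 and 3113 counts in FLV border, 3041 and 2225 counts in WT border, and 547 and 494 counts in WT centre. The libraries are stranded, but the use of strand in counting is not stated, so reads of this pair cannot be told apart. The same limit holds for SARD1 and NPR1, whose overlapping antisense neighbours AT1G73790 and AT1G64270 had at most 80 and 129 counts in a library. A second antisense neighbour of NPR1 in the reference, AT1G08667, was not analysed here.

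SARD1 (AT1G73805), a calmodulin-binding-family factor that activates ICS1, had 11.6 and 1.6 CPM in FLV border, 9.26 and 6.29 CPM in WT border, and 25.1 and 8.17 CPM in WT centre. It lies on chromosome 1 at 27744790 to 27749248, minus strand, with 7 exons. The groups overlapped in every pair. The libraries labelled FLV border differed from each other 7.27 times, more than either wild-type pair, whose ratios were 1.47 and 3.08. Its log2 fold changes were -0.24 ± 0.84 for FLV border over WT border and -1.10 ± 0.85 for WT border over WT centre, and neither passed (edgeR, adjusted p = 1 and 0.405). With library totals both were positive, at 0.29 and 0.09.

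EDS1 (AT3G48090), a lipase-like protein that pairs with PAD4 or SAG101, had 8.55 and 5.08 CPM in FLV border, 6.08 and 6.92 CPM in WT border, and 14.8 and 5.70 CPM in WT centre. All 3 groups overlapped, with log2 fold changes of 0.07 ± 0.55 for FLV border over WT border and -0.66 ± 0.56 for WT border over WT centre, the sign of the last being positive, at 0.53, with library totals. Of the 50-base windows of EDS1, 0.903% also occur in its tandem copy AT3G48080, which had 31 and 22 counts in FLV border, 52 and 25 counts in WT border, and 9 and 17 counts in WT centre. ICS1 shares 0.322% of its windows with AT1G35513, and the other 8 genes share 0% with another annotated transcript. Windows were compared in the direction of each transcript, so overlaps with antisense transcripts were not searched. EDS1 lies on chromosome 3 at 17755329 to 17758147, minus strand, with 4 exons.

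PAD4 (AT3G52430), the partner of EDS1, had 4.20 and 5.44 CPM in FLV border, 6.91 and 6.22 CPM in WT border, and 15.3 and 47.0 CPM in WT centre. The 3 groups did not overlap, and PAD4 was the member of the 10 that was lower in library 1 than in library 2 of WT centre. PAD4 fell in FLV border relative to WT centre, with a log2 fold change of -2.69 ± 0.59 (edgeR, adjusted p = 0.0255), and for WT border over WT centre it had -2.25 ± 0.58 (edgeR, adjusted p = 0.0527). Without library 2 of WT centre, the higher one, these were -1.59 and -1.13, and the call held (adjusted p = 0.0404). The difference between EDS1 and PAD4 in fold change was not tested. PAD4 lies on chromosome 3 at 19431095 to 19434450, plus strand, with 2 exons.

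NPR1 (AT1G64280), the receptor and coactivator, had 20 and 14.3 CPM in FLV border, 21.8 and 24.2 CPM in WT border, and 17.9 and 15 CPM in WT centre. WT border lay above both other groups, which overlapped. NPR1 lies on chromosome 1 at 23852748 to 23855658, minus strand, with 4 exons. None of its comparisons passed: FLV border over WT border was -0.42 ± 0.42 and WT border over WT centre was 0.49 ± 0.42 (edgeR, adjusted p = 1 and 0.452). The values of NPR1 moved with the scaling: with library totals FLV border over WT border was 0.12, against an all-gene median of 0.56, and WT border over WT centre was 1.73, against 1.24, and was then called higher. FLV border over WT centre was 0.06 ± 0.42, and with library totals 1.85, against an all-gene median of 1.85, and called higher (edgeR, adjusted p = 0.00948).

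WRKY70 (AT3G56400), a factor that favours salicylate over jasmonate responses, had 19.0 and 12.6 CPM in FLV border, 29.7 and 28.7 CPM in WT border, and 47.1 and 33.9 CPM in WT centre. The groups stood in this order with no overlap. The gene lies on chromosome 3 at 20908711 to 20910623, minus strand, with 3 exons. The log2 fold changes were -0.89 ± 0.44 for FLV border over WT border, -0.47 ± 0.44 for WT border over WT centre, and -1.36 ± 0.45 for FLV border over WT centre (edgeR, adjusted p = 0.96, 0.489 and 0.0694). With library totals the second was 0.76 and the third 0.41. WRKY70 was the most abundant of the 10 genes per base in each group, with mean levels per 1000 bases of 14.2 CPM in FLV border, 26.3 in WT border and 36.4 in WT centre.

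PR1 (AT2G14610), a secreted protein of the CAP family, gave 2 and 3 reads in the libraries labelled FLV border, 13 and 3 reads in WT border, and 60 and 37 reads in WT centre. In FLV border these come to 0.0408 and 0.0607 CPM, in WT border to 0.373 and 0.104 CPM, and in WT centre to 5.33 and 2.54 CPM. The groups did not overlap in any pair. The ratio of summed normalised counts was 0.202 for FLV border over WT border (95% counting interval 0.0579 to 0.577), 0.0669 for WT border over WT centre (0.0368 to 0.114) and 0.0135 for FLV border over WT centre (0.00429 to 0.0326). These intervals cover counting error and not the spread between libraries. PR1 fell in WT border relative to WT centre, as given above, and in FLV border relative to WT centre, with a log2 fold change of -6.16 ± 0.97 (edgeR, adjusted p = 0.0159). FLV border over WT border had an unadjusted p of 0.0466 and did not pass (edgeR, adjusted p = 0.888), and without library 1 of WT border its log2 fold change was -0.98. PR1 is a gene of 1 exon on chromosome 2 at 6241640 to 6242541, minus strand.

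PR2 (AT3G57260), a beta-glucanase, had 2.12 and 2.33 CPM in FLV border, 5.56 and 1.15 CPM in WT border, and 28.9 and 12.9 CPM in WT centre. FLV border lay inside the range of WT border, and WT centre lay above both. PR2 has 2 exons on chromosome 3 at 21188397 to 21189967, minus strand. PR2 fell in FLV border relative to WT centre, with a log2 fold change of -3.23 ± 0.76 (edgeR, adjusted p = 0.0307), and WT border over WT centre did not pass (adjusted p = 0.0655). FLV border over WT border was -0.60 ± 0.71, and 0.95 without library 1 of WT border. The neighbouring beta-glucanase gene BG3 shares no 50-base window with PR2 and had 0.918 and 1.03 CPM in FLV border, 2.04 and 7.58 CPM in WT border, and 4 and 14.4 CPM in WT centre.

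PR5 (AT1G75040), a thaumatin-like protein, had 11.3 and 3.72 CPM in FLV border, 5.93 and 5.63 CPM in WT border, and 14.2 and 12.4 CPM in WT centre. WT centre was highest, and FLV border spanned WT border. PR5 has 2 exons on chromosome 1 at 28177670 to 28179022, plus strand. The log2 fold changes were 0.38 ± 0.56 for FLV border over WT border and -1.20 ± 0.57 for WT border over WT centre (edgeR, adjusted p = 1 and 0.188), the last being 0.04 with library totals. In WT border over WT centre PR1, PR2 and PR5 thus stood at -3.99, -2.63 and -1.20, and whether these differ from each other was not tested.

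Per 1000 bases of gene model, the order of the 10 genes in WT centre ran from WRKY70 at 36.4 CPM through PR2 at 16.7, PAD4 at 16.1 and PR5 at 13.6 to ICS1 at 3.26, with PR1 at 5.18. In WT border WRKY70 was followed by NPR1 at 9.12 and PR5 at 5.90, and PR1 was lowest at 0.314. In FLV border PR5 at 7.68 and NPR1 at 6.80 came after WRKY70, and ICS1 at 1.08 and PR1 at 0.0668 were lowest. PR2 and PAD4 in WT centre, and PR5 and NPR1 in FLV border, do not differ beyond the spread of their libraries.

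**Figure D2:**
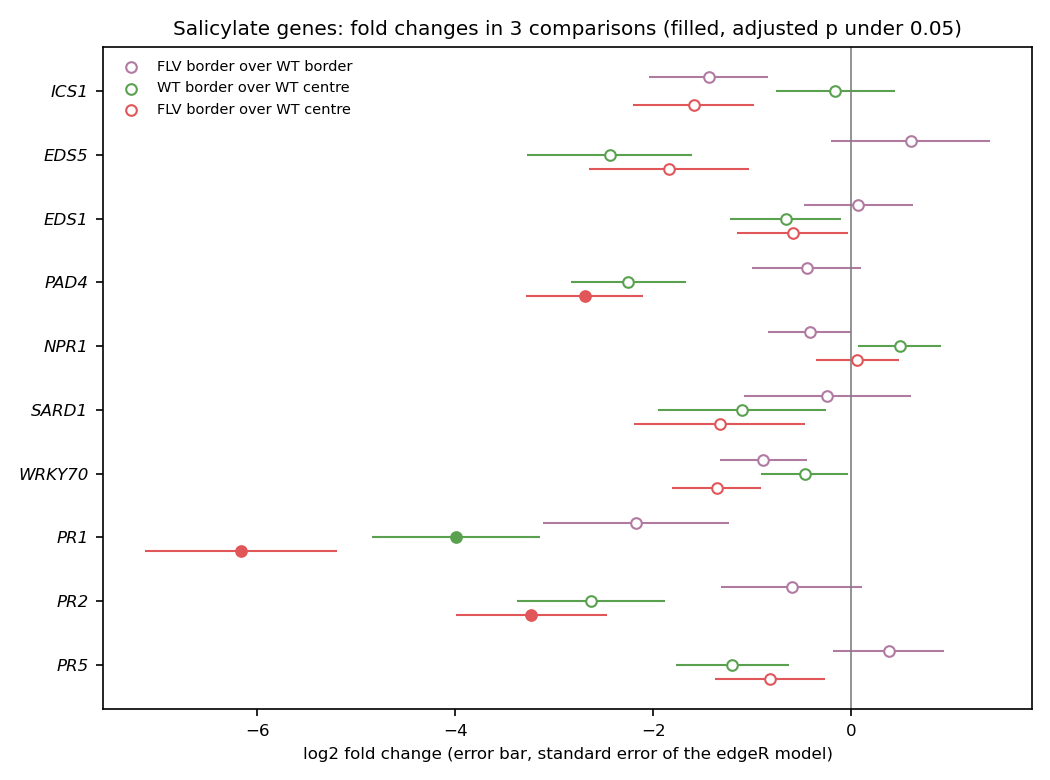
Log2 fold changes of the 10 salicylate genes in 3 comparisons, with the standard error of the edgeR model; filled points have an adjusted p under 0.05. PR1 is filled for WT border over WT centre at -3.99, and PAD4, PR1 and PR2 are filled for FLV border over WT centre at -2.69, -6.16 and -3.23; with library totals 4 of the 10 values stay negative in each of the last 2 comparisons.

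Between the libraries labelled FLV border and WT border, the question is what the white margin of the mutant changes. Of the 10 genes, 0 passed by edgeR, and likewise 0 by DESeq2 and 0 by limma-voom, while 2 had an unadjusted edgeR p under 0.05. The background is low: edgeR called 0.0595% of 21852 genes, 12 higher (0.0549%) and 1 lower (0.00458%), DESeq2 0.888% (0.549% higher, 0.339% lower) and limma-voom 0.0686%, and 5.53% had an unadjusted edgeR p under 0.05. The median log2 fold change of the 10 genes was -0.43, against 0.02 over all genes, with 7 negative and 3 positive values; with library totals it was 0.11, against 0.56, with 4 negative and 6 positive. Both FLV border libraries lay below both WT border libraries for 5 genes, namely ICS1, PAD4, NPR1, WRKY70 and PR1, against 18.7% of all genes, and above them for 0, against 19.3%. With library totals, where this was not counted, PAD4 and NPR1 had positive fold changes. In simulated counts of this design, 0% of genes changed by 1 on the log2 scale were recovered, 18% of those changed by 2 and 100% of those changed by 4. Smaller differences were thus mostly not detectable. The changed genes had a mean of at least 5 CPM and a spread set by the trend over genes. The shares therefore do not carry over to PR1, which is lower, or to genes of wider spread. In the real counts SAG13, at 4.41, was not called (edgeR, adjusted p = 0.422), and it too lies under 5 CPM in each library. ACD6, above 5 CPM in each library, had -3.69 and was not called either (edgeR, adjusted p = 0.38).

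Between WT border and WT centre, the question is how the leaf regions of wild type differ. PR1 was the member called, lower in WT border, where 6.13% of all genes were called, 3.13% higher and 3.00% lower. The median of the 10 genes was -1.15, against -0.02 over all genes, with 9 negative values; with library totals it was 0.07, against 1.24, with 4 negative values. Both WT border libraries lay below both WT centre libraries for 6 genes, against 27.2% of all genes. They were PAD4, EDS5, WRKY70, PR1, PR2 and PR5. This order rests on TMM and was not counted with library totals, where WRKY70 and PR5 had positive fold changes. The PR1 call was lost when any library other than WT centre 2 was left out, with adjusted p-values of 0.0666 and 0.0615 without FLV border 1 and 2, 0.125 and 0.193 without WT border 1 and 2, and 0.0549 without WT centre 1 (edgeR). It was also lost with the 4 libraries compared alone (0.0555) and with an offset for gene length (0.0618). DESeq2 called 4 of the 10 lower, namely EDS5, PAD4, PR1 and PR2, where it called 20.5% of all genes with an adjusted p, 11.8% lower and 8.67% higher.

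FLV border and WT centre stood at opposite ends for several genes. PAD4, PR1 and PR2 were called lower in FLV border, where 14.2% of all genes were called, 7.35% lower and 6.82% higher. The median of the 10 genes was -1.48, against 0.05 over all genes, with 9 negative values, and 0.26 against 1.85 with library totals, with 4 negative. Both FLV border libraries lay below both WT centre libraries for ICS1, PAD4, WRKY70, PR1, PR2 and PR5, which are 6 of the 10, against 28.1% of all genes, and above them for 0, against 34.2%. With library totals, where this was not counted, ICS1, WRKY70 and PR5 had positive fold changes. All 3 calls were lost without either FLV border library (PR1 adjusted p = 0.0953 and 0.104, edgeR), and the PR2 call was lost without WT centre 1 (0.0659). The PAD4 and PR2 calls were lost with library totals (0.223 and 0.132), where NPR1 was called higher, and that of PAD4 with the 4 libraries compared alone (0.0512). The 3 comparisons share libraries pairwise, so their values are not independent of each other.

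**Figure D3:**
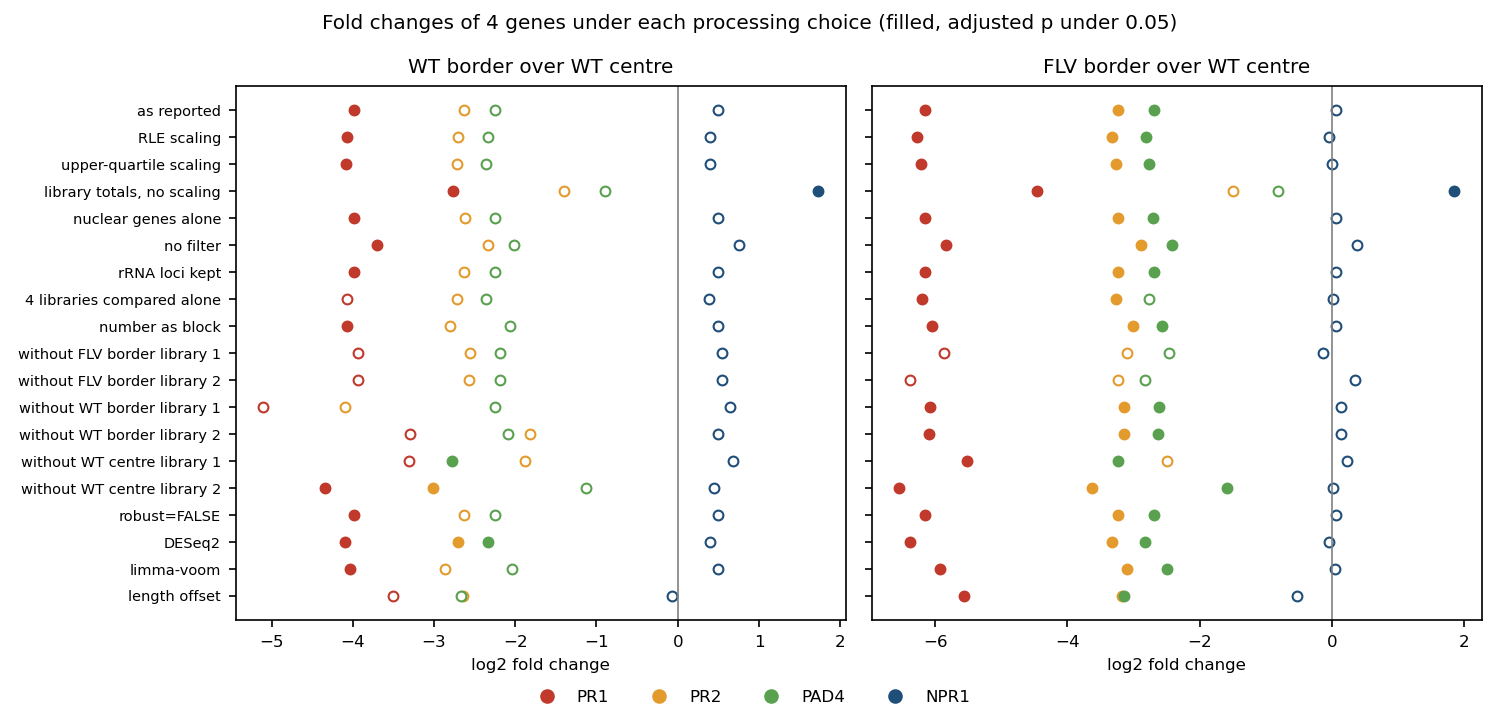
Log2 fold changes of PR1, PR2, PAD4 and NPR1 as reported and under each of 18 other settings, for WT border over WT centre and FLV border over WT centre; filled points have an adjusted p under 0.05. PR1 lies between -5.10 and -2.77 for WT border over WT centre and is filled in 11 of the 18 settings, while NPR1 is filled with library totals, at 1.73, and lies at -0.07 with the length offset.

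Libraries of a group also differed for these genes. In WT centre, 9 of the 10 were higher in library 1, against 52.3% of all genes, with a median log2 difference of 1.10, against 0.07. In FLV border 7 of the 10 were higher in library 1, with a median of 0.54, against 48.9% of all genes and a median of -0.02. In WT border 6 of the 10 were higher in library 1, with a median of 0.06. The library of WT centre with the high values is the one with the low share of mapped reads, and the role of that in the values was not tested.

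Marker genes of leaf cell types also had unequal levels in the pieces, given here as summed CPM of each list. The sum of 5 guard cell markers was 1840 to 1910 in FLV border, 727 to 1000 in WT border and 195 to 240 in WT centre. TGG1, a myrosinase, made up most of it, at 1890 and 1820 CPM in FLV border, 716 and 983 CPM in WT border, and 224 and 189 CPM in WT centre. MYB60 and KAT1 of the same list had -0.54 and -0.73 for FLV border over WT border and -0.48 and -0.79 for FLV border over WT centre, and were not called. The sum of 5 mesophyll markers was 2760 to 8330 in FLV border, 11300 to 23300 in WT border and 21900 to 72800 in WT centre, the ranges of the wild-type groups overlapping. CAB3 and LHCB2.1 of this list differed widely between libraries of each group, in WT centre at 993 and 30200 CPM and at 129 and 17900 CPM. All 5 are genes of photosynthesis or of the chloroplast, so in a white margin the sum is no measure of mesophyll cells. The means of 6 of the 10 salicylate genes rose from FLV border through WT border to WT centre, against 24.3% of all genes, namely ICS1, PAD4, SARD1, WRKY70, PR1 and PR2. This order rests on TMM and was not counted with library totals. There ICS1, SARD1 and WRKY70 had positive fold changes for WT border over WT centre, and PAD4 and SARD1 for FLV border over WT border. Libraries of SARD1 overlapped in every pair of groups, those of ICS1 between the wild-type groups, and those of PR2 between the border groups. By edgeR, 2 of the 5 guard cell genes (TGG1 and FAMA) were called higher and 2 of the 5 mesophyll genes (RBCS1A and GLK1) lower for FLV border over WT centre. Of all genes, 6.82% were called higher and 7.35% lower there. CAB3 and LHCB2.1 overlapped between these groups. The sum of 7 xylem markers was 56.4 to 64.3 in FLV border, 54.9 to 58.4 in WT border and 20.7 to 32.2 in WT centre. That of 5 epidermis markers was 329 to 475 in FLV border, 313 to 372 in WT border and 266 to 276 in WT centre, and its genes went both ways for FLV border over WT centre. ATML1 was called higher there, at 3.53 (edgeR, adjusted p = 0.0149), and CER6 lower, at -1.77 (0.0395). The phloem sum was 123 to 126 in FLV border, below 140 to 255 in WT border and 147 to 224 in WT centre, with 0 of the 4 genes called by edgeR. SUC2 made up most of it, at 72.3 and 73.3 CPM in FLV border, 87.1 and 178 CPM in WT border, and 81.6 and 171 CPM in WT centre. The phloem genes went both ways for FLV border over WT centre, with SEOR1 at 1.24, APL at -0.03, SUC2 at -0.79 and PP2-A1 at -1.53. Trichome sums overlapped between groups, at 29.9 to 39.9 in FLV border, 33 to 39 in WT border and 17.3 to 81.2 in WT centre. No marker was at 0 in both libraries of a group, and the part of cell makeup in the salicylate values was not tested.

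Around the 10 genes, 7 lists held 51 other genes of the pathway, of which 46 were tested. For FLV border over WT border 0 of the 46 passed by edgeR, with 7 at an unadjusted p under 0.05 (15.2%, against 5.53% of all genes) and 1 called by DESeq2, and a median of -0.19. For WT border over WT centre 1 passed higher and 3 lower, against 3.13% and 3.00% of all genes, with a median of -0.18. For FLV border over WT centre 2 passed higher and 5 lower, against 6.82% and 7.35% of all genes, with a median of -0.69. The 4 calls of WT border over WT centre became 1 without either FLV border library, 0 without either WT border library, 2 without WT centre 1 and 11 without WT centre 2. Each call named below for WT border over WT centre was lost without either WT border library (edgeR, adjusted p = 0.0955 to 0.24), and each named for FLV border over WT centre without either FLV border library (0.0559 to 0.159).

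The 8 genes known to respond to salicylate had a median of -1.6 for FLV border over WT border, the lowest of the 7 lists, and of -1.72 for WT border over WT centre. With library totals these medians were -1.08 and -0.49. By edgeR 0 of the 8 were called in FLV border over WT border, with 3 at an unadjusted p under 0.05, against 5.53% of all genes. In WT border over WT centre 2 were called lower, where 3.00% of all genes were. LURP1, needed for basal resistance to an oomycete, had 12 and 6.77 CPM in FLV border, 39 and 16.4 CPM in WT border, and 586 and 106 CPM in WT centre. LURP1 fell in WT border relative to WT centre, with a log2 fold change of -3.64 ± 0.87 (edgeR, adjusted p = 0.0457). Without library 1 of WT centre, which stood apart, it was -1.88 and the call was lost (0.0896), as it was without FLV border 1 and 2 (0.0672 and 0.0616), with limma-voom (0.0529), with the length offset (0.0593) and with the 4 libraries alone (0.0627). AED1, a secreted protease-like protein of systemic immunity, had 4.20 and 4.02 CPM in FLV border, 5.73 and 3.13 CPM in WT border, and 26.1 and 19.2 CPM in WT centre. AED1 fell in WT border relative to WT centre, at -2.35 ± 0.49 (edgeR, adjusted p = 0.0377), and the FLV border values lay inside those of WT border. That call was lost without FLV border 1 and 2 (0.0672 and 0.0626) and with the 4 libraries alone (0.0556). PCC1, a small protein first described for its circadian rhythm and response to pathogens, had 31.5 and 12.4 CPM in FLV border, 101 and 35.7 CPM in WT border, and 2400 and 287 CPM in WT centre. PCC1 had a value of -4.30 ± 1.10 for WT border over WT centre and did not pass (edgeR, adjusted p = 0.0525). It fell in FLV border relative to WT centre, at -5.94 ± 1.19 (0.0217), and -3.67 without library 1 of WT centre (0.0238).

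ACD6, an ankyrin membrane protein that promotes salicylate accumulation, had 7.31 and 8.37 CPM in the libraries labelled FLV border, 157 and 45.9 CPM in WT border, and 221 and 52.3 CPM in WT centre. Both FLV border libraries lay far below the other 4, which overlapped. ACD6 had -3.69 ± 0.84 on the log2 scale for FLV border over WT border (edgeR, adjusted p = 0.38; called by DESeq2), and it fell in FLV border relative to WT centre, at -4.12 ± 0.86 (adjusted p = 0.0231), and -2.70 without library 1 of WT centre (0.0369). LURP1 and AED1 were called between the regions of wild type, and ACD6 was not, at -0.43 ± 0.76. Whether ACD6 differs from them in fold change was not tested.

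**Figure D4:**
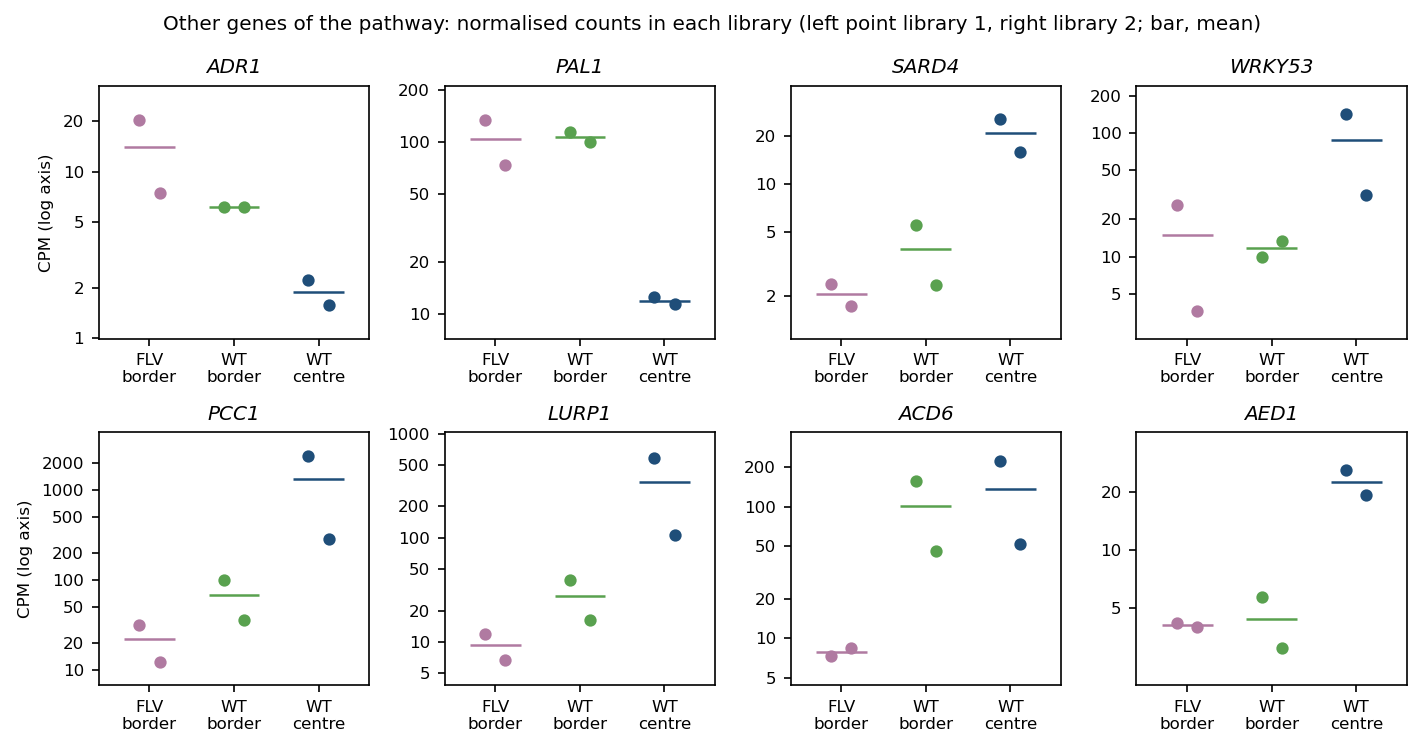
Normalised counts (CPM, log axis) of 8 other pathway genes in each library of the 3 groups; points are libraries and bars are means of 2. PAL1 lies at 134 and 74.1 CPM in FLV border, 115 and 99.7 CPM in WT border and 12.5 and 11.4 CPM in WT centre, while PCC1, LURP1, SARD4 and AED1 are highest in WT centre.

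The 7 other synthesis genes had a median of 1.14 for WT border over WT centre, and 1 of them was called higher, where 3.13% of all genes were. With library totals this median was 2.4, against 1.24 over all genes. PAL1, the phenylalanine ammonia-lyase that also feeds lignin and flavonoids, had 134 and 74.1 CPM in FLV border, 115 and 99.7 CPM in WT border, and 12.5 and 11.4 CPM in WT centre. PAL1 rose in WT border relative to WT centre, with a log2 fold change of 3.17 ± 0.52 (edgeR, adjusted p = 0.0282), and in FLV border relative to WT centre, at 3.12 ± 0.51 (0.0168), and FLV border over WT border was -0.05 ± 0.47. For WT border over WT centre PAL2 had 2.01 ± 0.52 (edgeR, adjusted p = 0.0539) and PAL4 1.49 ± 0.65 (0.162). ICS2, the minor isochorismate synthase, had -1.37 ± 0.68 (0.211). SARD4, a reductase of the pipecolate pathway that acts with salicylate in systemic resistance, had 2.39 and 1.74 CPM in FLV border, 5.53 and 2.33 CPM in WT border, and 25.5 and 15.9 CPM in WT centre. SARD4 fell in WT border relative to WT centre, at -2.39 ± 0.57 (edgeR, adjusted p = 0.045). ALD1 and FMO1 of the same route were too low to test. The SARD4 call, like that of AED1, was lost with library totals (edgeR, adjusted p = 0.17 and 0.134), with the same sign. That of SARD4 was also lost without FLV border 1 and 2 (0.077 and 0.0726), without WT centre 1 (0.0735), with the 4 libraries alone (0.0632) and with the length offset (0.0578).

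Of the 7 upstream genes, ADR1, a helper immune receptor that works with EDS1 and PAD4, had 20.5 and 7.38 CPM in FLV border, 6.11 and 6.15 CPM in WT border, and 2.22 and 1.58 CPM in WT centre. ADR1 rose in FLV border relative to WT centre, at 2.88 ± 0.61 on the log2 scale (edgeR, adjusted p = 0.0239), while PAD4 fell in the same comparison. SAG101, the other partner of EDS1, had 22.1 and 10.6 CPM in FLV border, 5.30 and 6.81 CPM in WT border, and 7.29 and 3.98 CPM in WT centre, with FLV border over WT border at 1.43 ± 0.53 (adjusted p = 0.779). NDR1, needed by another class of immune receptors, had -1.09 ± 0.63 for FLV border over WT border and CAMTA3, a repressor of EDS1, had 0.18 ± 0.46. The upstream median was 0.18 for FLV border over WT border.

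Of the 11 perception genes 0 passed in any of the 3 comparisons by edgeR. NIMIN1 had an unadjusted edgeR p under 0.05 for FLV border over WT centre, as did 35.1% of all genes. It was called there by DESeq2, as were 25.5% of all genes with an adjusted p. NIMIN1, an inhibitor that binds NPR1, had 0.612 and 0.263 CPM in FLV border, 1.26 and 0.208 CPM in WT border, and 3.55 and 1.79 CPM in WT centre. The TGA factors of this list with the smallest p-values, TGA3, TGA4 and TGA1, had log2 fold changes of -0.76, -0.64 and 0.02 for FLV border over WT border and 1.08, -0.60 and -1.50 for WT border over WT centre.

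Of the 7 tested WRKY factors 0 passed by edgeR in any comparison, with 1, 3 and 2 at an unadjusted p under 0.05 for FLV border over WT border, WT border over WT centre and FLV border over WT centre, against 5.53%, 29.9% and 35.1% of all genes. DESeq2 called 0, 1 (WRKY53) and 2 (WRKY53 and WRKY54), against 0.888%, 20.5% and 25.5% of all genes. All 7 values of WT border over WT centre were negative, with a median of -1.69, though 3 of 7 were positive with library totals. For FLV border over WT border 5 of 7 were positive, with a median of 0.74. Of these 5, WRKY18, WRKY38, WRKY46 and WRKY53 exceeded the WT border values in FLV border library 1 alone. In FLV border library 2 each was lower than in either library of WT border. WRKY50 was higher in each FLV border library, at 0.837 and 0.708 CPM, against 0.0287 and 0.417 CPM in WT border. WRKY53, which acts in senescence and defence, had 26.3 and 3.68 CPM in FLV border, 9.95 and 13.4 CPM in WT border, and 142 and 31.5 CPM in WT centre. Its value for WT border over WT centre was -2.89 ± 0.96 (edgeR, adjusted p = 0.0911). WRKY54, the near relative of WRKY70, had 5.41 and 3.76 CPM in FLV border, 17.6 and 7.16 CPM in WT border, and 14.6 and 12.4 CPM in WT centre, with FLV border over WT border at -1.43 ± 0.53 (adjusted p = 0.774). WRKY46 and WRKY38 had 1.38 ± 0.73 and 1.3 ± 1.09 in that comparison. WRKY46 stood at 8.71 and 1.68 CPM in FLV border and at 2.29 and 1.7 CPM in WT border. WRKY38 stood at 0.592 and 0.0404 CPM in FLV border and at 0.115 and 0.139 CPM in WT border.

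Of the 5 tested turnover genes 0 passed by edgeR in any comparison. In the same order of comparisons 2, 1 and 1 had an unadjusted edgeR p under 0.05, against 5.53%, 29.9% and 35.1% of all genes. DESeq2 called UGT74F2 lower in FLV border than in WT centre, where it called 14.9% of all genes with an adjusted p lower. UGT74F2, a salicylate glucosyltransferase, had 0.429 and 2.12 CPM in FLV border, 2.09 and 14.8 CPM in WT border, and 5.77 and 8.93 CPM in WT centre, and UGT74F1, its close copy, had 0.265 and 0.283 CPM in FLV border, 1.09 and 1.01 CPM in WT border, and 0.0888 and 0.343 CPM in WT centre. For FLV border over WT border they had -2.72 ± 0.98 and -1.92 ± 0.71 (edgeR, adjusted p = 0.774 for both), and UGT76B1 and GH3.5 had -0.31 and -0.19. All 5 values of this list were negative in that comparison, though 3 were positive with library totals.

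**Figure D5:**
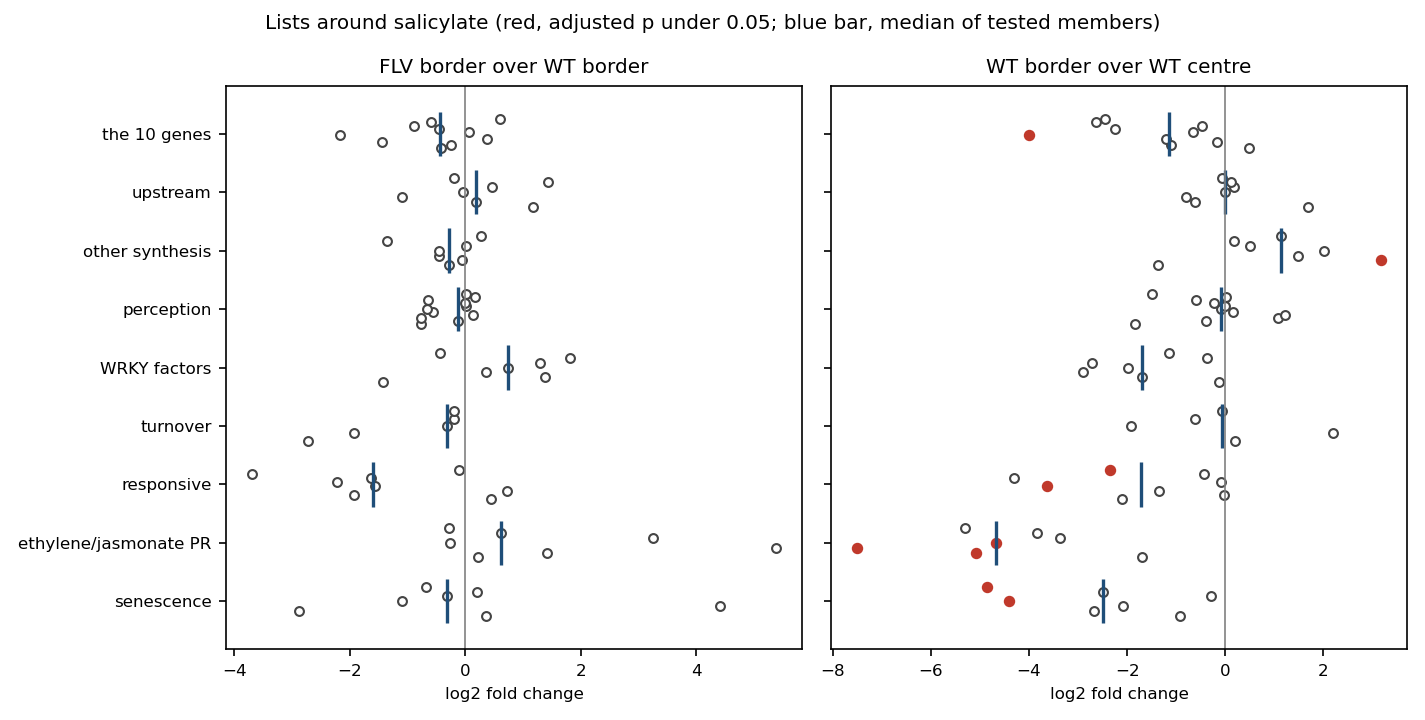
Log2 fold changes of the 10 genes and of the lists around them, for FLV border over WT border and WT border over WT centre; each point is a gene, red points have an adjusted p under 0.05, and blue bars are medians. The medians of the 10 genes are -0.43 and -1.15, and 0.11 and 0.07 with library totals; the outermost ethylene/jasmonate point of each panel is PDF1.2b, whose WT border counts are 0 and whose fitted value is no bound.

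The list of ethylene and jasmonate genes, a branch that salicylate is known to oppose, holds PR proteins and defensins and the transcription factors ERF1 and ORA59. Of 7 tested, 3 were called lower in WT border than in WT centre and 0 higher, against 3.00% and 3.13% of all genes. PR4, a chitin-binding protein, had 1.82 and 3.19 CPM in FLV border, 0.917 and 5.11 CPM in WT border, and 41.0 and 113 CPM in WT centre. PR4 fell in WT border relative to WT centre, at -4.68 ± 0.90 (edgeR, adjusted p = 0.0339), and in FLV border relative to WT centre, at -4.94 ± 0.91 (0.0192). The first of these was lost without FLV border 1 (0.0503) and with the length offset (0.0565). PDF1.3, a defensin, fell in WT border relative to WT centre, at -5.07 ± 1.24 (0.0481). The PDF1.3 call was lost with the replicate block (0.0674), without FLV border 1 and 2 (0.057 and 0.053), without WT centre 1 (0.0904), with limma-voom (0.0594) and with the length offset (0.0899), so 10 of 18 other settings kept it. PDF1.2b had 0 counts in both WT border libraries and 19 in WT centre, which makes it at least 15.6-fold lower in WT border with a floor of 3 counts over the group (edgeR, adjusted p = 0.045). Its call was lost without any 1 of the 6 libraries (0.0567 to 0.182) and with the length offset (0.093), and DESeq2 gave no adjusted p. With PDF1.2b at that bound, the median of the list was -3.97, and -4.68 with its fitted value. ERF1, an ethylene response factor, had -3.84 ± 1.09 (0.0656).

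Among 7 tested senescence genes, SAG21 and ORE1 were called lower in WT border than in WT centre, at -4.40 ± 0.84 and -4.86 ± 1.02 (edgeR, adjusted p = 0.0333 and 0.038), where 3.00% of all genes were. The ORE1 value was -3.37 without WT centre 2 and its call was lost there (0.0562), without FLV border 1 (0.0532) and with the length offset (0.0552), and SAG21 was lost with the length offset (0.0564). SAG21, a late-embryogenesis-like protein, had 10.9 and 2.41 CPM in FLV border, 8.74 and 19.7 CPM in WT border, and 377 and 224 CPM in WT centre. NAP, a senescence NAC factor, was called lower in FLV border than in WT centre, at -5.56 ± 1.31 (0.0301), as were SAG21 and ORE1. In that comparison 3 of the 7 were thus called lower and 0 higher, against 7.35% and 6.82% of all genes. Without WT centre 2 the NAP value was -3.84 and the call was lost (0.0701). SAG13, an early senescence marker, had 3.06 and 0.485 CPM in FLV border, 0.0573 and 0.104 CPM in WT border, and 0.355 and 0.343 CPM in WT centre, with FLV border over WT border at 4.41 ± 1.07 (edgeR, adjusted p = 0.422; called by DESeq2). The median of this list for WT border over WT centre was -2.50, against -0.02 over all genes. With library totals it was -1.19, against 1.24, with 2 of the 7 values positive.

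The genes most like PR1 over the 6 libraries, by Pearson's r of log2 CPM among 10294 protein-coding genes with a mean of at least 5 CPM, were KIN2, GGH2, AT3G20680, ECS1 and AT1G33780, with r of 0.996 to 0.993. KIN2, a cold-induced gene, had 6.69 and 7.22 CPM in FLV border, 45.2 and 15 CPM in WT border, and 736 and 252 CPM in WT centre. For ICS1 they were DMR6, AT5G16220, AT1G25550, CYP79B2 and AT1G07070, with r of 0.981 to 0.951. DMR6, a salicylate hydroxylase, had 12.4 and 12.2 CPM in FLV border, 13.3 and 14.8 CPM in WT border, and 15.7 and 13.9 CPM in WT centre, so it followed ICS1 in order over a much narrower range. These are descriptions over 6 libraries that share scaling and depth, picked from all candidates, so no p is given.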

How the data were processed

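Total RNA of leaf pieces was depleted of ribosomal RNA and read as stranded, single-end Ion Torrent Proton libraries, per the labels' protocols. The deposited values are raw counts per gene model, with its length as the second column; per the file headers a program named sam2pkm wrote them. The genome build was TAIR10, per the submitters' processing notes; the aligner, the strand setting and the fate of multiply mapping reads are not given in the sources used here. The files hold no coordinates, so positions and promoters (1 of the 10 is not reported here) come from RefSeq TAIR10.1 and could not be compared with theirs; of the 10 gene models, ICS1 and PR2 have the length of a reference transcript.

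The 15 rRNA loci were left out, and filterByExpr of edgeR 4.0.16 (R 4.3.3) kept 21852 genes. Libraries were scaled by TMM, and all 6 libraries entered 1 quasi-likelihood fit with a mean for each group (glmQLFit and glmQLFTest, robust=TRUE, two-sided). It left 3 residual degrees of freedom, and the common biological coefficient of variation was 0.456. Benjamini-Hochberg adjustment ran over all genes of a comparison, and genes under 0.05 are called. An exact two-sided permutation test of 2 libraries against 2 cannot go below p = 0.333. Log2 CPM used a prior count of 2. The model was tested on simulated data. Alternatives were RLE, upper-quartile and nuclear-gene scaling, library totals, no filter, rRNA loci kept, the 4 libraries compared alone, a block for the library number, each library left out, robust=FALSE, DESeq2 1.42.0, limma-voom (limma 3.58.1) and an offset for gene length.

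The 10 genes and the lists were chosen with earlier results of these data known, so no list is independent support. Named are all 10 genes, up to 4 genes of each list by smallest p in any comparison, near copies with their counts, and the 5 protein-coding genes most like PR1 and ICS1.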

Additional observations from a re-analysis of the deposited data

How the results depend on the processing

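For FLV border over WT border, 0 of the 10 genes were called in all 18 alternatives, and their median lay between -0.70 and 0.11. For WT border over WT centre, where 1 was called, the count was 4 with DESeq2, 2 with library totals (PR1 lower, NPR1 higher), 0 with the 4 libraries compared alone, 0 with the length offset, and 0 to 3 with 1 library left out. For FLV border over WT centre, where 3 were called, it was 5 with DESeq2, 2 with library totals (PR1 lower, NPR1 higher) and 0 to 6 with 1 library left out. The medians were 0.07 and 0.26 with library totals, where the all-gene medians were 1.24 and 1.85, and -1.24 to -0.57 and -2.12 to -0.74 with 1 library left out; the causes were not tested. The PR1 value for WT border over WT centre ranged over adjusted p-values of 7.67e-05 to 0.193, and that of FLV border over WT border with its 4 libraries alone could not be fitted, PR1 being too low there. Each named gene of the other lists that was called kept its sign in every alternative that could be fitted, but not every call: for WT border over WT centre the calls held in 16 of 18 alternatives for PAL1, 15 for SAG21, 14 for PR4, 13 for ORE1, 12 for AED1, 10 for LURP1, SARD4 and PDF1.3, and 9 for PDF1.2b, which DESeq2 gave no adjusted p and which was too low to fit with its 4 libraries alone.

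Signs turned for some genes that were not called. With library totals, FLV border over WT border was 0.10 for PAD4, 0.12 for NPR1 and 0.29 for SARD1; WT border over WT centre was 1.02 for ICS1, 0.53 for EDS1, 0.09 for SARD1, 0.76 for WRKY70 and 0.04 for PR5; and FLV border over WT centre was 0.14 for ICS1, 1.14 for EDS1, 0.38 for SARD1, 0.41 for WRKY70 and 0.96 for PR5. WT border over WT centre was 0.14 for ICS1 with no filter and -0.07 for NPR1 with the length offset. For NPR1, FLV border over WT centre was -0.05 with RLE scaling, -0.05 with DESeq2 and -0.53 with the length offset. With 1 library left out, FLV border over WT border ran from -0.71 to 1.28 for EDS5, -0.36 to 0.40 for EDS1, -2.29 to 0.58 for SARD1, -1.34 to 0.95 for PR2 and -0.64 to 0.97 for PR5. WT border over WT centre ran from -0.75 to 0.67 for ICS1 and -1.10 to 0.25 for EDS1, and FLV border over WT centre from -1.05 to 0.29 for EDS1 and -0.14 to 0.35 for NPR1.

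The library number is shared between groups but nothing says that it pairs them; same-numbered deviations correlated at 0.366 for FLV border and WT border, 0.082 for WT border and WT centre and 0.047 for FLV border and WT centre. With the replicate block, 0, 1 and 3 of the 10 genes were called, the medians were -0.47, -1 and -1.59, EDS1 for FLV border over WT border was -0.03, the PDF1.3 call was lost (adjusted p = 0.0674), and 0 of all genes were called for FLV border over WT border, against 13 without it. Over all genes, the calls for that comparison were 194 with DESeq2, 23 with no filter, 2 with the length offset and 0 to 29 with 1 library left out. For WT border over WT centre they were 7798 with library totals, 4215 with DESeq2, 2055 with no filter, 858 with limma-voom, 428 with the length offset, 337 with the 4 libraries alone and 1 to 3260 with 1 library left out, against 1339. For FLV border over WT centre they were 11821, 5468 with DESeq2, 1206 with the 4 libraries alone and 0 to 4395 with 1 library left out, against 3096. PR1, with 2 to 60 counts per library, is limited by depth.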
